A study of Mus musculus with 21 samples.

Results

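Oxidative phosphorylation (OXPHOS) genes encode the subunits of the 5 protein complexes of the inner mitochondrial membrane that turn electrons from food into ATP. They were taken from the deposited count table by name among protein-coding genes. Names starting with mt-, Ndufs, Ndufv, Ndufc, Uqcr, Atp5 or Cox4 to Cox8, or with Ndufa or Ndufb and a digit, qualified, as did the 4 succinate dehydrogenase genes Sdha to Sdhd. The rule used no measured value and gave 96 of 23713 genes. Of these, 13 are encoded in mitochondrial DNA and 83 in the nucleus. The mitochondrial genes comprise 7 for complex I, 1 for complex III, 3 for complex IV and 2 for complex V. The nuclear genes comprise 36 for complex I, 4 for complex II, 8 for complex III, 18 for complex IV and 17 for complex V.

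Expression was measured by polyA RNA sequencing of mouse tail keratinocytes, the cells of the epidermis, in 3 models of basal cell carcinoma (BCC), a Hedgehog-driven skin tumour. Each model, named SmoM2, Gnas-eKO or PKI, had 4 libraries from tumour-bearing skin (BCC) and 3 from tumour-free controls (Con). SmoM2 is the name of an activated form of Smoothened, the Hedgehog signal transducer. Gnas encodes a G protein subunit that raises cAMP, and PKI names a protein that inhibits the cAMP-activated kinase PKA. The labels give no promoter, Cre line, construct, strain or age for any group, nor what the Con mice carry. Tissue was taken at day 29 (SmoM2), day 42 (Gnas-eKO) or day 57 (PKI), and each model was its own batch. Model, day and batch cannot be told apart, whereas BCC was set against Con from its own batch. SmoM2 BCC and SmoM2 Con animals are named with different prefixes in the count table, and what the prefixes mean is not stated, so tumour and prefix cannot be told apart in SmoM2. The p-values measure the spread between these libraries, each of which carries its own animal name.

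Complexes I and II feed electrons from NADH and succinate into the respiratory chain, complexes III and IV pass them on to oxygen, and complex V, the ATP synthase, uses the proton gradient that complexes I, III and IV build. Mitochondrial DNA encodes a few core subunits, transcribed as long precursors from both strands inside the organelle. All other subunits, including the whole of complex II, are transcribed in the nucleus and imported as proteins, so the complexes need both genomes.

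Library totals ranged from 16645858 to 22251132 counts. Gnas was at 172 to 178 CPM (read counts brought to a common library size, with TMM factors over all libraries) in Gnas-eKO Con and at 51.1 to 115 CPM in Gnas-eKO BCC. Ptch1, a Hedgehog target, was higher in every BCC than in every Con library of each model. Markers of basal keratinocytes summed to 15217 to 36436 CPM in every library, and 8 skeletal muscle markers to at most 5.34 CPM. Replicate 3 of Gnas-eKO BCC stood apart from all other libraries for the mitochondrial genes, and from the others of its model for the nuclear ones. The main summaries of these genes in Gnas-eKO are therefore given with and without it.

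The mitochondrially encoded transcripts took overlapping shares of the RNA in tumour and control epidermis of SmoM2 and PKI. In SmoM2 the 13 genes held 2.52% ± 0.567 of all counts in Con (SD, n = 3) and 2.75% ± 0.146 in BCC (SD, n = 4). The PKI share was 2.82% ± 0.333 in Con (SD, n = 3) and 2.96% ± 0.345 in BCC (SD, n = 4). Both differences, 0.227 and 0.144 percentage points, were smaller than the spread among the Con libraries. In Gnas-eKO the share was 2.99% ± 0.259 in Con (SD, n = 3) and 4.48% ± 2.57 in BCC (SD, n = 4), where 3 libraries lay between 2.94% and 3.41% and replicate 3 at 8.32%.

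**Figure D1:**
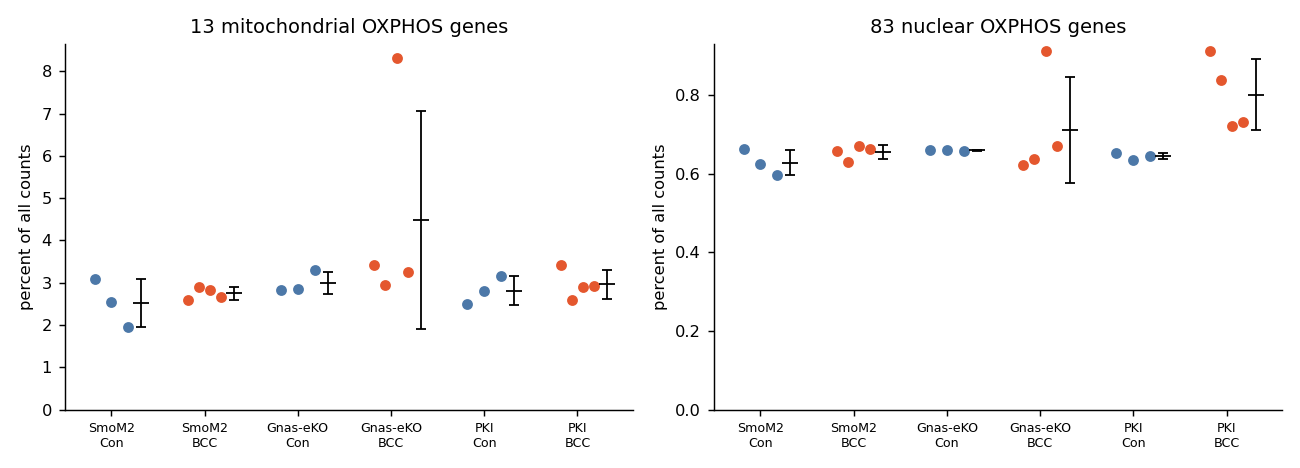
Percent of all counts of a library held by the 13 mitochondrial OXPHOS genes (left) and by the 83 nuclear ones (right), by model and group. Points are libraries (3 Con, blue, and 4 BCC, red, per model), and the bars give the mean and SD. Mitochondrial shares of Con and BCC overlap in every model and replicate 3 of Gnas-eKO BCC lies at 8.32%, whereas the nuclear share of every PKI BCC library lies above all PKI Con libraries.

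Gene by gene, edgeR's quasi-likelihood test with Benjamini-Hochberg adjustment called 1 of the 13 mitochondrial genes in SmoM2 at an adjusted p under 0.05, and 0 in each of the other models. Of all genes tested, 29.7% were called in SmoM2 and 34.5% in PKI. In Gnas-eKO 1.63% were (1.46% higher and 0.165% lower). At an unadjusted p under 0.05, and with DESeq2's Wald test, the counts were likewise 1, 0 and 0. The median log2 fold change (BCC minus Con) of the 13 genes was -0.01 in SmoM2, from -0.14 for mt-Cytb to 0.92 for mt-Nd6. In PKI the median was 0.04, with values from -0.14 for mt-Atp8 to 0.21 for mt-Nd6. The median over all genes tested was 0.00 in both models. For 12 of the 13 genes the SmoM2 libraries overlapped between Con and BCC, as did all 13 in each of the other models. Of all genes, 19.6% had BCC wholly above Con and 19.2% wholly below in SmoM2. These shares were 22.4% and 20.8% in PKI, and 9.98% and 9.7% in Gnas-eKO.

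mt-Co1, the catalytic core of complex IV and the mitochondrial gene with the most counts, had 11156, 9462 and 7111 CPM in the SmoM2 Con libraries. In SmoM2 BCC it had 8399, 9501, 9063 and 8661 CPM. Its PKI values were 8539.6, 10333 and 11219 CPM in Con and 12359, 9555, 10242 and 10448 CPM in BCC, so neither model separated the groups. mt-Cytb, the cytochrome b of complex III, had 3048, 2525 and 2058 CPM in SmoM2 Con and 2080.2, 2369, 2459 and 2245 CPM in SmoM2 BCC. In PKI it had 2858, 3232 and 3923 CPM in Con and 4156, 3048, 3112 and 3273 CPM in BCC. mt-Atp6, the proton channel subunit of ATP synthase, had 2180.1, 1880.02 and 1590.2 CPM in SmoM2 Con and 1668, 1879, 1749 and 1684 CPM in SmoM2 BCC. Control libraries thus differed among themselves by as much as tumour from control.

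The called gene was mt-Nd6 (chrM:13552-14070, minus strand, build GRCm38), a complex I subunit and the only protein encoded on the light strand of mouse mitochondrial DNA. It had 17.5, 13.5 and 8.17 CPM in the SmoM2 Con libraries and 24.3, 21.1, 28.4 and 23.8 CPM in BCC, so every BCC library was above every Con library. BCC minus Con was 0.92 in log2 units (SE 0.23, edgeR adjusted p = 0.0176). It lost the call without Con replicate 2, as it did in a fit of all 21 libraries together. In PKI it had 19.00, 19.1 and 24.9 CPM in Con and 35.99, 26.5, 20.6 and 13.3 CPM in BCC, and the groups overlapped. Per kilobase of transcript, mt-Nd6 averaged 36.8 CPM over the 9 Con libraries, the lowest level of the 13. Reads of the 2 strands could be mixed there if counting ignored the strand, which the sources used here do not state.

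Nuclear pseudogenes that copy mitochondrial genes also held counts. Matching annotated transcripts found 11 pseudogene copies of 9 mitochondrial genes, at no less than 95% identity over at least 80% of the copy. Of these, 7 lie in 1 block at chr1:24611535-24616197 (GRCm38), a fragment of mitochondrial DNA inserted in the nuclear genome. Where gene and copy are identical, reads cannot be assigned by sequence. The first 60 bases of mt-Co2, a complex IV subunit (chrM:7013-7072), and of its copy Gm28661 (chr1:24614885-24615565) are shown because no base differs over the whole copy of 681 bases. For contrast, bases 1054 to 1113 of mt-Co1 (chrM:6381-6440) are set against its copy Gm29216 (chr1:24615706-24616197), which differs at 6 of 492 bases. All 6 lie within the bases shown, so the rest of this copy is identical to mt-Co1 as well. Capitals mark the differing bases, and the first of them is T1056A, counted from base 1 of the mt-Co1 transcript.
mt-Co2: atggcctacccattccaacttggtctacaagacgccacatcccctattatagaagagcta
Gm28661: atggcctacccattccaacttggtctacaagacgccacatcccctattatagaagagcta
mt-Co1: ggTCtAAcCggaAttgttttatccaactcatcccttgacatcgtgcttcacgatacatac
Gm29216: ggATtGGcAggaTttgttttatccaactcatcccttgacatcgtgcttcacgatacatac

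Gm28661 held a median of 61.1% of the pair's counts over the 21 libraries (59.3% to 64.3%), more than mt-Co2 itself. The copies of mt-Nd3, mt-Atp6, mt-Nd4l and mt-Co3 held medians of 65.7%, 61.8%, 60.9% and 52.4%. Gm29216 held 1.77% of the counts shared with the longer mt-Co1. Gm28439, identical to mt-Nd4 over 876 bases, held 3.09% of the counts shared with that gene. Together the copies held 23.9% ± 0.648 of the counts of copies and mitochondrial genes (SD, n = 21), from 22.1% to 24.9%. None of the 11 copies was called in any model. Adding copies to their genes changed no call among the 13 and gave medians of 0.06 in SmoM2 and 0.05 in PKI. How the counts were divided between a gene and its copy was not stated, so levels of these genes are uncertain.

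**Figure D2:**
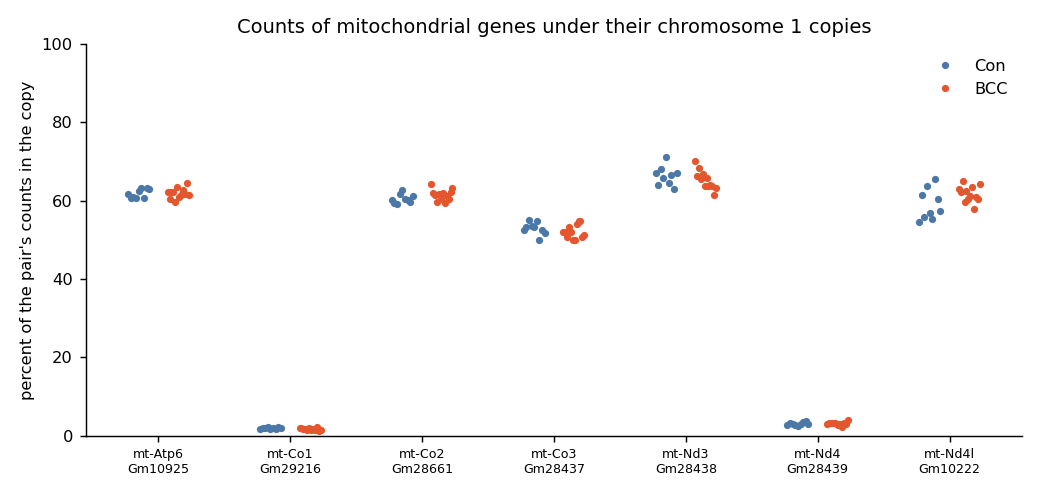
Percent of the counts of a gene and its chromosome 1 copy that were counted under the copy, for the 7 pairs of the block. Each point is 1 of the 21 libraries (9 Con, blue, and 12 BCC, red). In 5 pairs the copy holds about as many counts as the gene or more, with medians from 52.4% to 65.7%, and Con and BCC libraries lie at similar heights.

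With copies added, the median level of the 13 mitochondrial genes in Con was 2591 CPM per kilobase, from 36.8 for mt-Nd6 to 7779 for mt-Atp6. The median of the 82 nuclear members with a known length was 65.9 CPM per kilobase. Atp5b, the catalytic beta subunit of ATP synthase, had the highest of the nuclear levels at 417 CPM per kilobase. Cox7a1, whose product is the heart and muscle form of a complex IV subunit, had the lowest at 0.0988.

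In PKI every nuclear OXPHOS gene that passed the test rose. Of 80 tested, 27 were called higher and 0 lower in PKI BCC, against 18.7% of all genes called higher and 15.8% called lower. Their median log2 fold change was 0.28, with 75 values above 0 and 5 below, while the median over all genes was 0.00. In SmoM2, 4 of 80 were called higher and 16 lower, against 16.2% and 13.5% of all genes. Their median there was -0.09, with 65 of 80 values below 0. In Gnas-eKO edgeR called 0 of 80, and the median was 0.06. At an unadjusted p under 0.05 there were 4 (5.00%, against 19.6% of all genes). DESeq2's Wald test also called 0 of them in Gnas-eKO, where it called 9.35% of all genes. At most 81 of the 83 nuclear members passed the filter on low counts in any fit. 

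The excess of calls over all genes in PKI rested on single libraries and on the fit. Without PKI Con replicate 1, 2 or 3, 8, 5 and 8 members were called higher (10.00%, 6.17% and 10.00%), against 15.5%, 13.2% and 13.9% of all genes in the same fits. Without BCC replicate 1 there were 13 (16.2%, against 15.2%). Without BCC replicate 2 there were 7 (8.75%, against 15.2%), and 1, Ndufv3, was called lower. In one fit of all 21 libraries 8 of 81 were called higher (9.88%, against 15.2%). Without BCC replicate 3 or 4 there were 36 and 34 (45.0% and 42.5%, against 18.0% and 18.4%). The median log2 fold change lay between 0.20 and 0.34 in these fits. Atp5b, Ndufa4l2, Sdhb and Sdhd kept the PKI call whichever single library was left out, and all but Ndufa4l2 also kept it in the fit of all 21. In SmoM2 the members called lower numbered 8 and 10 without Con replicate 1 or 2 (10.00% and 12.5%, against 12.8% and 9.24% of all genes), and 9 and 8 without BCC replicate 1 or 2 (11.2% and 10.00%, against 10.5% and 10.6%). In the fit of all 21 libraries 2 of 81 were (2.47%, against 10.7%). Atp5l, Cox5a, Cox6b2, Cox7c, Ndufa4l2, Ndufb1-ps, Ndufc2 and Sdha kept the SmoM2 call whichever single library was left out, but only Cox5a, Cox6b2 and Sdha of these in the fit of all 21. Without Gnas-eKO BCC replicate 2, 2 genes were called in Gnas-eKO (2.50%, against 11.8% of all genes). The SmoM2 result leans on the scaling, since with plain library totals in place of TMM 3 members were called lower and 4 higher and the median was 0.040. That scaling moved the median of all genes by 0.13, and relative to it the nuclear members lay at -0.09 both ways.

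**Figure D3:**
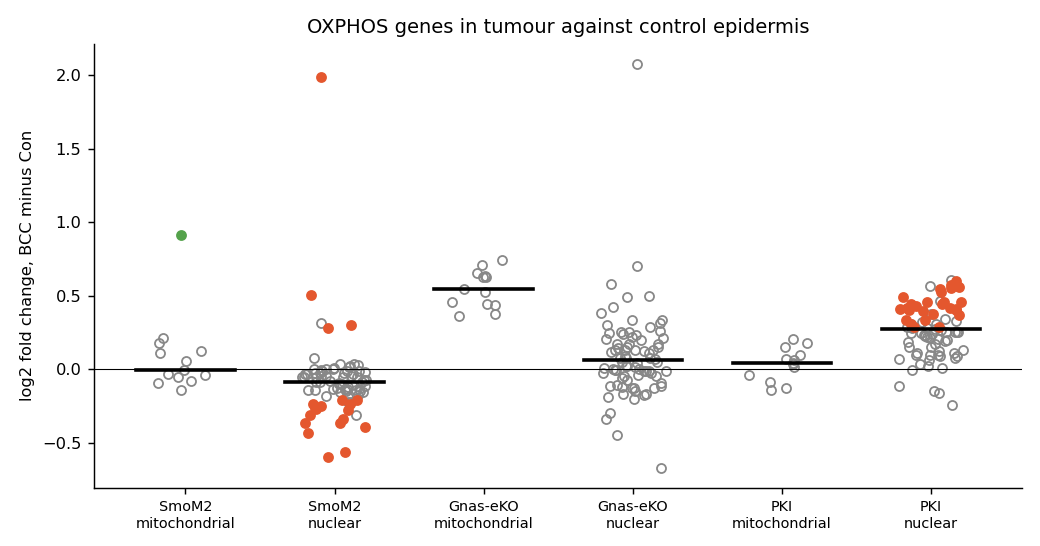
Log2 fold change (BCC minus Con) of every tested OXPHOS gene, by model and by genome. Each circle is a gene, filled where edgeR's adjusted p was under 0.05, and the bars are medians. The nuclear genes of PKI centre on 0.28 and those of SmoM2 on -0.09, the mitochondrial genes of both models lie around 0, and all 13 mitochondrial genes of Gnas-eKO lie between 0.36 and 0.75 with no call.

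In CPM without a model, 39 of the 80 nuclear members had every PKI BCC library above every PKI Con library and 2 had the reverse, against 22.4% and 20.8% of all genes. In SmoM2, 4 lay above and 26 below, against 19.6% and 19.2%. In Gnas-eKO, 0 lay above and 5 below, against 9.98% and 9.7%. Without BCC replicate 3 of Gnas-eKO, 0 lay above and 38 below, against 14.5% and 15.6% of all genes. The nuclear members together held 0.645% ± 0.00825 of the counts in PKI Con (SD, n = 3) and 0.802% ± 0.0914 in PKI BCC (SD, n = 4). The 4 PKI BCC shares were 0.913%, 0.839%, 0.722% and 0.731%, so replicates 1 and 2 were highest and all 4 exceeded the Con maximum of 0.653%. In SmoM2 the nuclear share of counts was 0.629% ± 0.0322 in Con (SD, n = 3) and 0.656% ± 0.0179 in BCC (SD, n = 4). The SmoM2 groups overlapped, and the mean was higher in BCC, opposite to the TMM-scaled median. In Gnas-eKO it was 0.660% ± 0.00129 in Con (SD, n = 3) and 0.711% ± 0.135 in BCC (SD, n = 4), or 0.645% ± 0.0246 in BCC without replicate 3 (SD, n = 3).

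Markers of other cell types and a sign of RNA quality also differed between libraries and groups, and not always in the same direction as these values. In PKI BCC, neutrophil and macrophage markers were highest in the same 2 libraries as the nuclear share. Those 7 genes summed to 3609 and 2550 CPM in PKI BCC replicates 1 and 2, to 929 and 984 CPM in replicates 3 and 4, and to 5.59 to 21.3 CPM in PKI Con. S100a8 and S100a9, which keratinocytes can also make, carried most of that sum, while Csf3r, a neutrophil receptor, was at 0.267 to 1.03 CPM. In SmoM2 the same sum was 18.6 to 109 CPM in Con and 394 to 1023 CPM in BCC. Langerhans cell markers summed to 125 to 260 CPM in PKI Con and 506 to 949 CPM in PKI BCC. Fibroblast markers summed to 15.8 to 43.5 CPM in PKI Con and 84.4 to 145 CPM in BCC, with 3 of 6 called higher. Melanocyte markers summed to 153 to 201 CPM and 72.2 to 117 CPM, with 4 of 5 called lower. Basal keratinocyte markers summed to 31001 to 35362 CPM in PKI Con and 27607 to 30233 CPM in BCC, with 3 of 6 called lower. Suprabasal keratinocyte markers overlapped in PKI, with 1 of 6 called higher and 3 lower, as did sebocyte markers, at 3090 to 5803 CPM in Con and 1118 to 3457 CPM in BCC with 1 of 7 called lower. Lymphocyte markers summed to 2.97 to 7.35 CPM and 8.56 to 16.9 CPM, with 3 called higher. The nuclear-retained RNAs Malat1, Neat1 and Meg3, a sign of RNA quality, summed to 1545 to 2375 CPM in PKI Con and to 807, 1041, 1535 and 1249 CPM in the 4 PKI BCC libraries, lowest in replicates 1 and 2. In SmoM2, basal keratinocyte markers summed to 28012 to 36436 CPM in Con and 20919 to 22610 CPM in BCC, with 4 of 6 called lower and 1 higher. Fibroblast markers there summed to 17.2 to 39.8 CPM in Con and 387 to 525 CPM in BCC, with 2 of 6 called higher. Suprabasal keratinocyte markers overlapped in SmoM2, with 3 of 6 called lower, and Langerhans cell markers summed to 211 to 267 CPM in Con and 279 to 354 CPM in BCC. The nuclear-retained RNAs summed to 1196 to 2214 CPM in SmoM2 Con and 618 to 1349 CPM in BCC. In Gnas-eKO, basal keratinocyte markers summed to 32899 to 36137 CPM in Con and at most 30242 CPM in BCC. Langerhans cell markers there summed to 224 to 303 CPM in Con and 325 to 780.1 CPM in BCC, and fibroblast markers to 15.9 to 27.4 CPM and 94.3 to 579 CPM. The part of these cells and of RNA quality in the results was not tested, and bulk RNA cannot tell fewer cells of a type from less RNA per cell.

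Among nuclear genes, those of complex I, the NADH dehydrogenase, had the smallest share called in PKI, 16.7%, below the 18.7% of all genes called higher. Of the 36 nuclear genes of complex I tested, 6 rose there, namely Ndufb7, Ndufs8, Ndufa11, Ndufc2, Ndufs1 and Ndufs6, with log2 fold changes from 0.29 to 0.46 and a median of 0.20 over all 36. Ndufs1, which carries iron-sulphur clusters of the electron path, had 75.6, 74.3 and 78.8 CPM in PKI Con and 109, 98.5, 84.02 and 82.9 CPM in BCC. Its log2 fold change of 0.31 (SE 0.11) had an edgeR adjusted p of 0.0490, near the threshold. In SmoM2, 7 fell and 2 rose (19.4% and 5.56%, against 13.5% and 16.2% of all genes). The strongest fall was of Ndufb1-ps, named as a pseudogene but typed as protein-coding (chr12:101968090-101977068, minus strand, overlapping Cpsf2). It had 33.9, 35.4 and 37.4 CPM in SmoM2 Con and 20.5, 21.7, 24.03 and 27.2 CPM in BCC, with no overlap between the groups (log2 fold change -0.59, SE 0.11, edgeR adjusted p = 0.00249). Ndufc1, a small accessory subunit, went from a mean of 17.9 to 13.5 CPM (-0.39, edgeR adjusted p = 0.0232). The genes that rose were Ndufa11 (0.30) and Ndufa3 (0.28), and Ndufa11 also rose in PKI (0.40).

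Complex II, succinate dehydrogenase, split by subunit, though a difference between subunits was not tested. In each model 2 of its 4 genes were called, against 18.7% of all genes higher in PKI and 13.5% lower in SmoM2. Sdhd (chr9:50596357-50603812, minus strand), which anchors the enzyme in the membrane, had 58.6, 53.4 and 61.2 CPM in PKI Con and 104, 85.7, 79.1 and 71.3 CPM in PKI BCC. All BCC libraries exceeded all Con libraries, and the change was 0.57 in log2 units (SE 0.13, edgeR adjusted p = 0.00784). Sdhb (chr4:140961203-140979193, plus strand), the iron-sulphur subunit, had 44.99, 47.5 and 48.3 CPM in PKI Con and 68.7, 63.7, 59.1 and 56.4 CPM in BCC, also without overlap (0.41, SE 0.09, edgeR adjusted p = 0.00686). Sdha, the flavoprotein that oxidises succinate, averaged 160.4 CPM in PKI Con and 158 CPM in BCC, and Sdhc, the other membrane anchor, 83.99 and 87.1 CPM. Neither passed the test. In SmoM2 the other pair was called. Sdha had 165, 160.1 and 157 CPM in Con and 138, 136, 135 and 127 CPM in BCC, and fell by 0.25 on the log2 scale (SE 0.06, edgeR adjusted p = 0.00905). Sdhc fell by 0.21 (SE 0.06, edgeR adjusted p = 0.0372), whereas Sdhb and Sdhd had log2 fold changes of 0.01 and -0.02 there and were not called. With library totals in place of TMM neither Sdha nor Sdhc was called in SmoM2, nor was either with the replicate number as a block. Sdhc also lost the SmoM2 call in one fit of all 21 libraries.

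Complex III, the cytochrome bc1 complex, had 2 of 8 nuclear genes called higher in PKI (25.0%, against 18.7% of all genes), both small accessory subunits. Uqcrq had 65.3, 65.7 and 60.2 CPM in PKI Con and 118, 106, 73.4 and 74.8 CPM in BCC (0.56, SE 0.17, edgeR adjusted p = 0.0372). Uqcr10 averaged 46.2 CPM in Con and 67.1 CPM in BCC (0.55). All 8 log2 fold changes were above 0 in PKI, with a median of 0.25. In SmoM2, Uqcr10 and Uqcr11 fell by 0.28 and 0.27, and the median of the 8 was -0.15.

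In complex IV, cytochrome c oxidase, nuclear genes were called in both models, while none of the 3 mitochondrial genes was. In PKI, 8 of 15 tested nuclear genes rose, against 18.7% of all genes, with a median of 0.43 over the 15. They were Ndufa4l2, Cox6a1, Cox7c, Cox6c, Cox5b, Cox5b-ps, Cox6b1 and Cox5a. In one fit of all 21 libraries only Cox6a1 of these kept the PKI call. Cox5b-ps, named as a pseudogene but typed as protein-coding, was counted beside Cox5b, and both are among the 27 nuclear calls. The copy search covered only genes typed as pseudogenes, so it could not tell whether both counts hold the same reads. In SmoM2, Cox7c, Cox5a, Cox6a1 and Cox6c fell while Cox6b2 and Ndufa4l2 rose, against 13.5% lower and 16.2% higher of all genes. Cox4i1, the common form of the regulatory subunit 4, had a log2 fold change of 0.26 in PKI (edgeR adjusted p = 0.111) and -0.04 in SmoM2 and was not called.

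The nuclear genes of complex V, the ATP synthase, also leaned upward in PKI, where 9 of 17 rose, against 18.7% of all genes. All 17 values were above 0 (median 0.34). Its 2 mitochondrial genes were not called there and lay below 0, at -0.14 and -0.04. The nuclear OXPHOS gene with the highest level, Atp5b (chr10:128083273-128090391, plus strand), had 799.9, 839 and 794 CPM in PKI Con and 1219, 1127, 962 and 992 CPM in PKI BCC. It changed by 0.42 in log2 units (SE 0.10, edgeR adjusted p = 0.00912), and it kept the call whichever PKI library was left out. Atp5a1, the alpha subunit that forms the catalytic head with beta, had 612, 584 and 603 CPM in Con and 831, 747, 670.2 and 659.9 CPM in BCC (0.29, edgeR adjusted p = 0.0375). In SmoM2 the same genes had log2 fold changes of 0.02 and 0.04. Atp5l, subunit g of the membrane part, was the 1 complex V gene called in SmoM2, with 40.1, 36.9 and 37.6 CPM in Con and 29.3, 30.99, 27.8 and 29.7 CPM in BCC (-0.36, edgeR adjusted p = 0.00577). Most counts of the Atp5l family lay under a copy, Gm10221, with a median of 59.99% of the pair.

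For 6 genes the test was passed in both models in opposite directions, lower in SmoM2 and higher in PKI. They were Cox5a, Cox6a1, Cox6c and Cox7c of complex IV, Ndufc2 of complex I and Uqcr10 of complex III. Of the 15772 genes tested in both models, 2.3% were called in opposite directions, and 0.875% lower in SmoM2 and higher in PKI. In one fit of all 21 libraries 0 of the 6 passed in both models (Cox5a in SmoM2 and Cox6a1 in PKI), and 1 of them, Cox7c, did so in the fit blocked by replicate number. When single libraries were left out, each of the 6 lost the PKI call in 2 to 6 of 7 fits, while Cox5a, Cox7c and Ndufc2 kept the SmoM2 call in all 7. Cox6a1 and Cox6c each lost the SmoM2 call in 5 of 7 fits, and Uqcr10 in 3. Cox7c (chr13:86044816-86046904, minus strand), a small membrane subunit, had 29.1, 24.8 and 25.7 CPM in SmoM2 Con and 17.7, 15.7, 17.9 and 19.9 CPM in SmoM2 BCC. In PKI it had 20.6, 23.6 and 25.05 CPM in Con and 37.6, 32.4, 29.9 and 25.8 CPM in BCC, so the groups separated in both models, in opposite directions. It changed by -0.56 in log2 units (SE 0.11, edgeR adjusted p = 0.00321) in SmoM2 and 0.46 (SE 0.14, edgeR adjusted p = 0.0274) in PKI. A pseudogene copy, Gm12338, held a median of 38.3% of the counts of the pair.

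Cox5a (chr9:57521274-57532426, plus strand), a nuclear subunit that contacts the catalytic core, had 68.8, 74.5 and 77.2 CPM in SmoM2 Con and 49.96, 49.8, 56.99 and 58.5 CPM in BCC. In PKI it had 69.5, 77.6 and 77.00 CPM in Con and 103, 102, 77.8 and 89.9 CPM in BCC. The lowest PKI BCC library lay just above the highest Con library, and the PKI call was lost in 6 of 7 fits that left out a library. Cox6a1 (chr5:115345642-115348981, minus strand), the form of subunit 6a found outside heart and muscle, had 101, 100.03 and 97.5 CPM in SmoM2 Con and 79.03, 71.9, 88.2 and 89.3 CPM in BCC. Its PKI values were 101, 101 and 96.2 CPM in Con and 175, 155, 115 and 123 CPM in BCC. Here both models separated the groups without overlap. Ndufc2 went from means of 45.7 to 35.9 CPM in SmoM2 and from 34.2 to 43.9 CPM in PKI. Cox6c went from 73.9 to 62.3 CPM and from 67.1 to 90.6 CPM, and Uqcr10 from 49.7 to 40.6 CPM and from 46.2 to 67.1 CPM. In Gnas-eKO none of the 6 was called. With library totals in place of TMM, Cox5a and Cox7c were still called lower in SmoM2 and the other 4 were not.

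**Figure D4:**
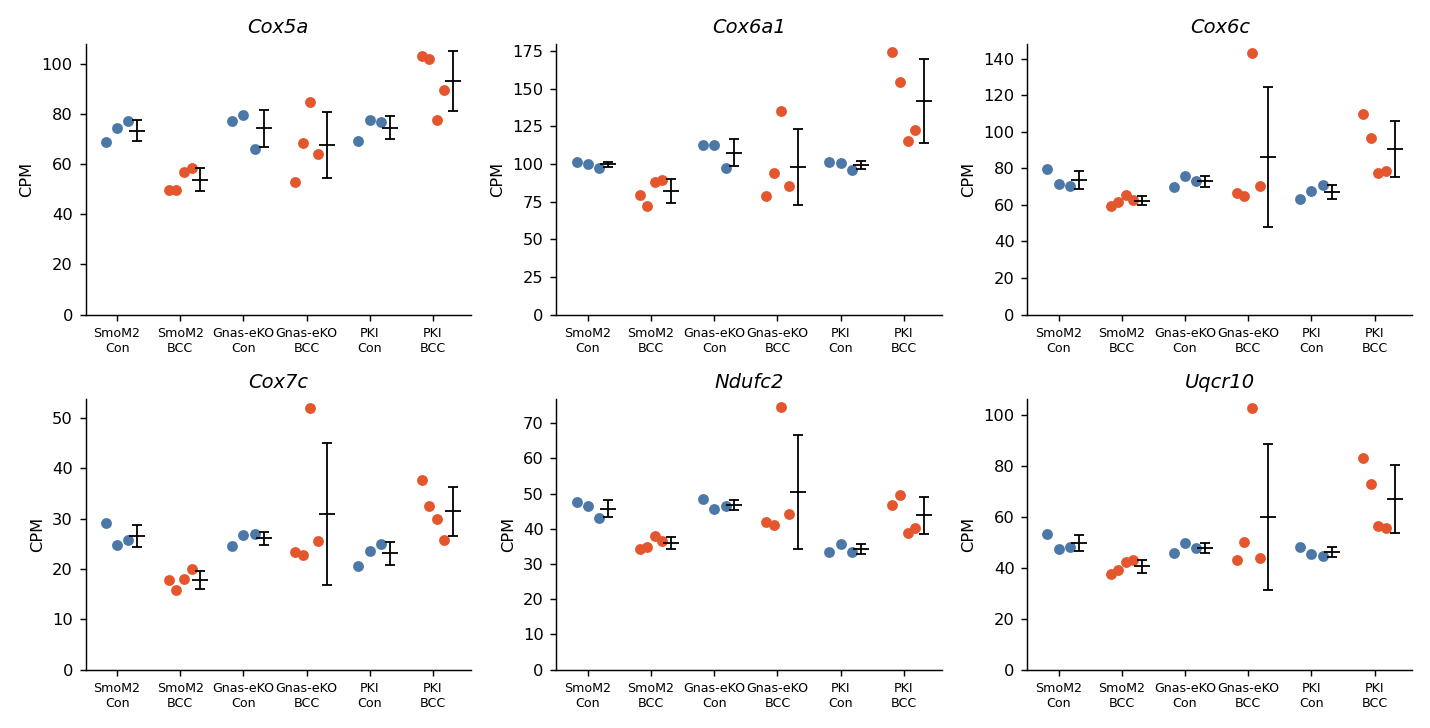
CPM of the 6 genes that passed the test in SmoM2 and in PKI in opposite directions. Points are libraries (Con blue, BCC red), and the bars give the mean and SD, with n = 3 for Con and n = 4 for BCC. In SmoM2 every BCC point lies below every Con point, in PKI every BCC point lies above every Con point, and in Gnas-eKO replicate 3 of BCC is highest in each panel.

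The difference between the models was tested directly. The BCC effect in PKI was larger than that in SmoM2 for 35 nuclear genes and smaller for 1, of 81 tested, against 12.6% and 12.3% of all genes. The median difference of log2 fold changes was 0.37 over these members. Of the 13 mitochondrial genes edgeR called 0 in this contrast and in the contrasts of Gnas-eKO with either model, 0 at an unadjusted p under 0.05 and 0 with DESeq2's Wald test. Without Gnas-eKO BCC replicate 3, edgeR called 0 of the 13 between Gnas-eKO and SmoM2. There 1 had an unadjusted p under 0.05, against 1830 of 17045 genes, and the median difference went from 0.51 to 0.01. Of all genes, 24.9% were called between PKI and SmoM2, 9.06% between PKI and Gnas-eKO (4.49% with a larger and 4.57% with a smaller effect in PKI) and 0.175% between Gnas-eKO and SmoM2 (0.0758% larger and 0.0991% smaller in Gnas-eKO). Among the genes with a larger effect in PKI, the difference was greatest for Cox7c at 1.02 (SE 0.17, edgeR adjusted p = 0.000925). Ndufb1-ps differed by 0.79 (SE 0.15, edgeR adjusted p = 0.00203), although its rise in PKI, from 31.5 to 35.8 CPM, was not itself called. By complex, the called larger effects numbered 13 of 36 in complex I, 2 of 4 in complex II, 4 of 8 in complex III, 8 of 16 in complex IV and 8 of 17 in complex V. The gene with the smaller effect in PKI was Cox6b2, at -1.42. In one fit of all 21 libraries the genes with a larger effect in PKI numbered 6 instead of 35 (7.41%, against 8.38% of all genes). Without SmoM2 Con replicate 2 they numbered 18 (22.2%, against 9.46%), without SmoM2 BCC replicate 2 19 (23.5%, against 10.00%), without PKI Con replicate 1 22 (27.2%, against 10.4%), and with library totals in place of TMM 19 (23.5%, against 8.92%).

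**Figure D5:**
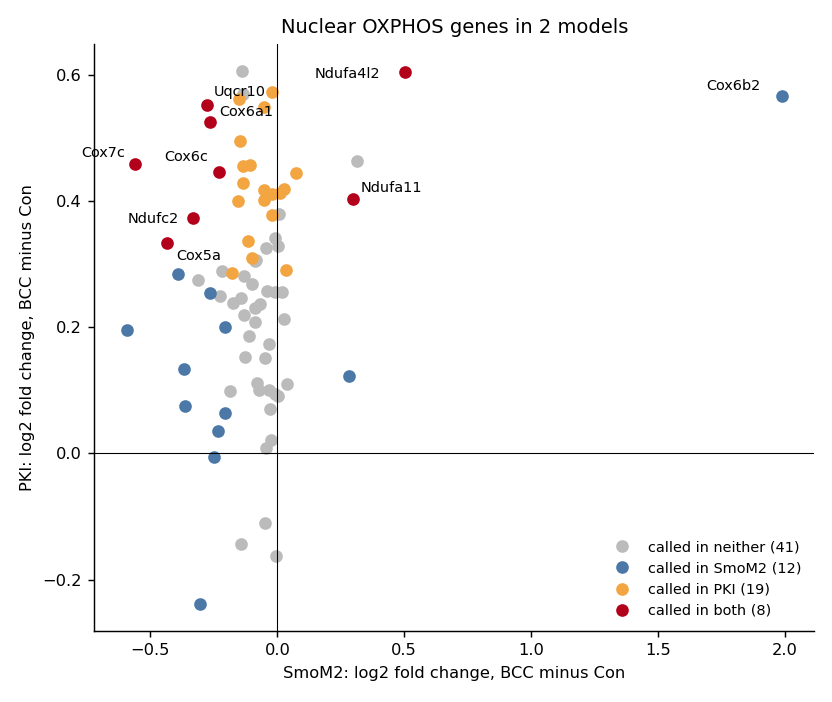
Log2 fold change (BCC minus Con) of the 80 nuclear OXPHOS genes tested in both models, SmoM2 on the horizontal and PKI on the vertical axis. Each point is a gene, marked by whether it was called in neither model (41), in SmoM2 only (12), in PKI only (19) or in both (8). Most points, 60 of 80, lie left of 0 and above 0, and 75 of 80 have a higher value in PKI than in SmoM2.

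Several OXPHOS subunits exist in alternative forms, encoded by separate genes. Cox6b2 (chr7:4751792-4753094, minus strand) is known as the testis form of a complex IV subunit. It had 0.551, 0.459 and 0.649 CPM in SmoM2 Con and 2.12, 2.27, 2.36 and 2.02 CPM in SmoM2 BCC, a low level that was higher in every tumour library. BCC minus Con was 1.99 in log2 units (SE 0.28, edgeR adjusted p = 0.000583). In Gnas-eKO it had 0.456, 0.279 and 0.817 CPM in Con and 3.23, 0.322, 3.21 and 1.98 CPM in BCC, a log2 change of 2.07 (SE 0.75, edgeR adjusted p = 0.181). Replicate 2 of Gnas-eKO BCC lay within the Con range, and without it the gene was called. Without replicate 3 the change was 1.84 (edgeR adjusted p = 0.215). In PKI it had 1.32, 0.758 and 0.901 CPM in Con and 1.75, 0.981, 1.82 and 1.32 CPM in BCC and was not called, and the difference between PKI and SmoM2 was -1.42 (SE 0.42, edgeR adjusted p = 0.0232). The common form, Cox6b1, went from 89.3 to 85.2 CPM in SmoM2 (not called) and from 95.6 to 125 CPM in PKI (0.40, edgeR adjusted p = 0.0290).

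Ndufa4l2 (chr10:127514967-127517154, plus strand, overlapping Shmt2) encodes a relative of the complex IV subunit Ndufa4 and is known as a target of hypoxia-inducible factor. It had 128, 119 and 115 CPM in SmoM2 Con and 174, 202, 145 and 157 CPM in SmoM2 BCC. In PKI it had 111, 97.3 and 83.8 CPM in Con and 134, 149, 146 and 157 CPM in BCC. Both models placed every BCC library above every Con library, with log2 fold changes of 0.50 (SE 0.11, edgeR adjusted p = 0.00638) and 0.60 (SE 0.10, edgeR adjusted p = 0.00198). Gnas-eKO leaned the other way, with 119, 155 and 173 CPM in Con and 43.6, 139, 93.3 and 97.4 CPM in BCC, overlapping and not called (-0.67, edgeR adjusted p = 0.303). Without replicate 3 it was -0.66 (edgeR adjusted p = 0.356). Ndufa4 itself had a log2 fold change of 0.57 in PKI, just short of a call (edgeR adjusted p = 0.0533), and of -0.13 in SmoM2. The difference between the models was called for it (0.70, edgeR adjusted p = 0.0373).

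Forms known from muscle were near absent from this epidermis. Cox7a1 and Cox8b averaged 0.0988 and 0.525 CPM per kilobase over the 9 Con libraries, and Cox6a2 is not analysed here. Cox4i2, the form of subunit 4 known from lung and from hypoxic cells, averaged 0.251 CPM per kilobase. Subunit c of the ATP synthase rotor is encoded by 3 genes for the same mature protein. Atp5g3 rose in PKI from 135 to 196 CPM (0.55, SE 0.14, edgeR adjusted p = 0.0152), and in SmoM2 its log2 fold change was -0.05. Atp5g1 and Atp5g2 were not called in any model, and copies held a median of 56.2% of the counts of Atp5g1 with Gm10039 and 98.8% of those of Atp5g2 with Gm10175. With the copies added, Atp5g1 was called higher in PKI. Over all nuclear members, 20 have at least 1 such copy, and adding copies gave 29 called higher in PKI in place of 27.

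In Gnas-eKO the mitochondrial picture rested on 1 library. All 13 mitochondrial genes were higher in replicate 3 of BCC than in every other Gnas-eKO library, by 2.45 to 3.20 times the mean of the other 3 BCC libraries (median 2.71). mt-Co1 had 10741, 9976, 30686 and 11003 CPM in the 4 BCC libraries and 10162, 10388 and 12162 CPM in Con. mt-Nd4, a proton-pumping subunit of complex I, had 2746, 2214, 7748 and 2419.5 CPM in BCC and 2148, 2283 and 2381 CPM in Con. The other 3 BCC libraries lay far nearer to Con. Nuclear members were also high there, at a median of 1.70 times the other 3 and above all 3 for 72 of 80, while over all genes the median was 0.974 and 5619 of 16409 lay above all 3. Uqcr10, for one, had 43.1, 50.1, 103 and 44.04 CPM in the 4 BCC libraries.

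Beside this, neutrophil and macrophage markers summed to 2009 CPM in replicate 3, against 68.4 to 569.7 CPM in the other 3, and basal keratinocyte markers to 15217 CPM. Replicate 1 had nearly the same basal sum, 15332 CPM. The nuclear-retained RNAs Malat1, Neat1 and Meg3 summed to 2180.1 CPM in replicate 3, against 821 to 1058 CPM in the other 3 and 1164 to 1650.01 CPM in Con. The part of these cells and of RNA quality was not tested. With replicate 3, the 13 mitochondrial genes had a median log2 fold change of 0.55 in Gnas-eKO, and without it 0.02, 7 above 0 and 6 below. The nuclear median went from 0.06 to -0.16 without it, with 69 of 80 values below 0, and edgeR called 0 of 80. At an unadjusted p under 0.05 there were 24 (30.0%, against 24.2% of all genes). Without the library, the BCC effect in PKI exceeded that in Gnas-eKO for 26 of 81 nuclear genes and was smaller for 0, with a median difference of 0.43, where 14.7% of all genes were called. With it, edgeR called 0 of 81 in that contrast, 10 at an unadjusted p under 0.05 (12.3%, against 25.3% of all genes), and DESeq2's Wald test 4 (4.94%, against 6.85% of all genes with a larger effect in PKI). Between Gnas-eKO and SmoM2 edgeR called 0 of 80 nuclear genes, 2 at an unadjusted p under 0.05 (2.50%, against 8.74%), and DESeq2's Wald test called 0, against 1.24%. Without replicate 3 edgeR again called 0 of 80 there, and 4 had an unadjusted p under 0.05, against 1830 of 17045 genes. The median difference of that contrast went from 0.18 to -0.04, with 26 values above 0 and 54 below.

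Counts of the mitochondrial genes per count of the nuclear members, copies added to both, were 5.37 ± 0.665 in PKI Con (SD, n = 3) and 4.55 ± 0.514 in PKI BCC (SD, n = 4). In SmoM2 the ratio was 4.86 ± 0.826 in Con (SD, n = 3) and 5.16 ± 0.367 in BCC (SD, n = 4). In Gnas-eKO it was 5.56 ± 0.534 in Con (SD, n = 3) and 7.25 ± 2.44 in BCC (SD, n = 4). Without replicate 3 the Gnas-eKO BCC ratio was 6.05 ± 0.533 (SD, n = 3). The groups overlapped in SmoM2, PKI and Gnas-eKO, so the ratio did not separate tumour from control beyond the spread between libraries.

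Promoters of nuclear OXPHOS genes are known to hold sites of NRF1, a transcription factor that binds a GC-rich palindrome. Promoter sequence, 250 bases before to 50 after the gene start, was matched from RefSeq (GRCm38.p6) for 68 of the 83 nuclear members. The NRF1 motif, 10 letters with any base at the sixth position, was searched on both strands. It is a palindrome only where that base is T. The motif occurred in 17 of 68 members (25.0%) and in 5.19% of the 27025 genes in the RefSeq promoter set. With the sixth base fixed as T, as in the first Cox6a1 window and in Atp5k, it was in 5 members (7.35%) and 1.07% of genes. Of the 20 matched genes called higher in PKI 7 held the looser motif, and of the 13 matched genes called lower in SmoM2 3 did. Windows of 30 bases, read on the minus strand, are shown for Cox6a1, which moved in opposite directions. It holds the motif at 152 and 107 bases before its RefSeq start, which differs from the deposited gene start given above. Sdhd and Atp5k, which rose in PKI, and Ndufs5, which fell in SmoM2, are shown with them, and capitals mark the motif. The windows lie at chr5:115349101-115349130 and chr5:115349056-115349085 for Cox6a1, chr9:50603909-50603938 for Sdhd, chr5:108434430-108434459 for Atp5k and chr4:123718265-123718294 for Ndufs5.
Cox6a1: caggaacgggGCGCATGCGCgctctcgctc
Cox6a1: cggataaagtGCGCAGGCGCtggagttcct
Sdhd: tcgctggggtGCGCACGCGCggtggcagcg
Atp5k: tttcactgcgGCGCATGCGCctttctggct
Ndufs5: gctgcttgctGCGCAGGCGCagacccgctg

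Other factors tied to these genes are GABP, YY1 and the estrogen-related receptors. CCGGAAGT, an ETS and GABP motif, was in 5 of 68 members (7.35%) and 4.31% of genes in the RefSeq promoter set. The YY1 motif was in 4 members (5.88%) and 0.755% of genes. TCAAGGTCA, the motif of estrogen-related receptors, was in 2 members, Atp5g3 and Sdhd, (2.94%) and 0.466% of genes. Of the 20 matched genes called higher in PKI, 2 held this motif, 1 the YY1 motif and 0 the ETS and GABP motif. A match describes letters in a window and no binding was measured.

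Genes that make, load and fuel the complexes were counted from lists chosen with earlier results of these data known. The counts are to be read against all genes tested, of which 18.7% rose and 15.8% fell in PKI, and 16.2% rose and 13.5% fell in SmoM2. Of 78 mitochondrial ribosomal protein genes, which translate the 13 mitochondrial messages, 23 rose and 0 fell in PKI (median 0.21), with Mrpl12 highest at 0.61 (edgeR adjusted p = 0.00709). In SmoM2, 2 rose and 9 fell (11.5%, below the share of all genes, with a median of -0.12), with Mrps10 at -0.81. Of 22 genes of mitochondrial import and content, 11 rose and 1 fell in PKI, and 0 rose and 6 fell in SmoM2. Slc25a5, the ADP/ATP carrier, rose in PKI from 430.4 to 639 CPM (0.58, edgeR adjusted p = 0.00186), while Mfn2, which fuses mitochondria, fell (-0.24). Phb, a scaffold of the inner membrane, fell in SmoM2 (-0.53, edgeR adjusted p = 0.00624).

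Of 17 genes of the tricarboxylic acid cycle and pyruvate dehydrogenase, 5 rose and 0 fell in PKI, and 1 rose and 3 fell in SmoM2. Mdh2, malate dehydrogenase, was the highest of those in PKI at 0.50, and Ogdh, of the oxoglutarate dehydrogenase complex, the lowest in SmoM2 at -0.34. Dlst and Idh3a were called in both models, lower in SmoM2 (-0.20 and -0.26) and higher in PKI (0.32 and 0.24). Of 45 assembly factors, 1 rose and 8 fell in SmoM2 (17.8% lower), and 3 rose and 4 fell in PKI (6.67% and 8.89%), where both shares were below those of all genes. Acad9, needed to assemble complex I, fell in SmoM2 from 245 to 149.7 CPM (-0.70, edgeR adjusted p = 0.00283), while Lyrm7, which helps insert the iron-sulphur protein of complex III, rose from 1.87 to 5.32 CPM (1.52). Surf1, a complex IV assembly factor, fell in PKI (-0.47), and Cox10, which makes the heme of complex IV, rose (0.44).

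Of 35 factors of mitochondrial DNA and RNA, 4 rose and 3 fell in PKI (11.4% and 8.57%), and 1 rose and 2 fell in SmoM2 (2.86% and 5.71%), all below the shares of all genes. Polrmt, the mitochondrial RNA polymerase, fell in SmoM2 from 33.7 to 26.95 CPM (-0.31, edgeR adjusted p = 0.0347). Top1mt, the mitochondrial topoisomerase, fell in PKI (-0.55), and Ptcd2, an RNA-binding protein, rose in both models (0.32 and 0.73). Among nuclear regulators, 4 of 11 rose and 1 fell in PKI, and of 10 tested in SmoM2 Myc fell (-0.32). Ppargc1b, a coactivator of mitochondrial biogenesis, rose in PKI from 6.49 to 9.63 CPM (0.58, edgeR adjusted p = 0.0219), Nrf1 rose (0.30), and Ppara, a receptor that drives fatty acid oxidation, fell (-1.55). Of 10 further subunits and carriers, 2 of which are also members, 4 rose in PKI, including Cycs, cytochrome c (0.63), and Cyc1, cytochrome c1 of complex III (0.42), and 1 fell in SmoM2, Higd2a (-0.43). In Gnas-eKO none of these lists had a called gene by edgeR, against 1.63% of all genes. Between 0 and 4 genes a list had an unadjusted p under 0.05, against 3212 of 16409 genes.

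Many OXPHOS messages are short, and other short messages had a similar median in SmoM2. Of nuclear members with an mRNA of at most 800 bases the SmoM2 median was -0.13, and of the 412 other genes that short it was -0.10. Of the short members, 11 of 37 were called lower (29.7%), against 15.5% of the other short genes. Longer members had a median of -0.08 against 0.01 for the other longer genes, and 4 of 42 were called lower (9.52%, against 15.1%). In PKI the short members had a median of 0.31 against 0.04 for other short genes, and the longer members 0.26 against 0.00. The part of message length in the SmoM2 values was not tested.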

How the data were processed

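RNA of mouse tail keratinocytes was sequenced after a stranded polyA preparation, per the labels' protocols. The authors deposited estimated counts per gene without normalization. Of the deposited values 33.1% are not whole, and they were rounded. The submitters' processing notes name bcl2fastq 2.20, cutadapt 1.18, STAR 2.7.0f, Partek and mm10. The counting tool, its strand setting and the treatment of reads that fit several places are not given in the sources used here. A second table, normalized by the authors, was not used.

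Counts were tested with edgeR 4.0.16 in R 4.3.3, with filterByExpr, TMM, the robust quasi-likelihood test and Benjamini-Hochberg adjustment over all genes tested. A gene was called at an adjusted p under 0.05. BCC and Con were compared over the 7 libraries of a model, and differences between models as an interaction over 14 libraries. SE is the absolute log2 fold change over the square root of F. Library totals of 16645858 to 22251132 counts limit the precision of low genes.

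Members and lists were chosen with earlier results of these data known. The named genes were the 13 mitochondrial genes, Sdha to Sdhd, paralogous subunits, the 4 highest and 4 lowest called nuclear members of each model and contrast, and members called in opposite directions. Atp5l, Ndufs1, Atp5b and Atp5a1 where outside it, and other genes listed as called, were added after their values were seen. Gene positions are deposited ones, with ends 1 base lower, on GRCm38, and all 96 members have the same start in GENCODE M21. Of the members, 38 overlap another annotated gene. Pseudogene copies were searched among genes typed as pseudogenes, by alignment to GENCODE M21 transcripts.

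Alternatives were DESeq2 1.42.0 size factors and Wald test, no filter, scaling without mitochondrial genes, a fit of all 21 libraries, the replicate number as a block, and leaving out each library. Library totals in place of TMM, copies added to their genes, scaling without mitochondrial genes and copies, and Gnas-eKO shares and overlaps without BCC replicate 3 were chosen after seeing the data. The fits were tested on simulated data. Libraries of 1 group always differed beyond sampling noise (lowest chi-square over its degrees of freedom 8.93).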

Additional observations from a re-analysis of the deposited data

Results flagged for a closer look

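Replicate 3 of Gnas-eKO BCC lay far above the other 3 libraries of its group. Of 153 group values examined for a single distant library, 33 passed Dixon's 95% limit for 4 libraries, 29 of them through this library. Chance passes the limit about 1 in 20 times for a single value, but these values share their libraries and are not independent. Complex I genes of mitochondrial DNA were at 7966 (mt-Nd1), 4562 (mt-Nd2), 333 (mt-Nd3), 7748 (mt-Nd4), 431 (mt-Nd4l) and 5478 CPM (mt-Nd5). Those of the other complexes were at 9009.8 (mt-Cytb), 30686 (mt-Co1), 4659 (mt-Co2), 5924 (mt-Co3), 5329 (mt-Atp6) and 2849 CPM (mt-Atp8). Nuclear genes of complexes I to III that stood out were Ndufb1-ps at 67.0, Ndufs6 at 65.9, Ndufb5 at 77.4, Ndufc2 at 74.7, Sdhd at 109, Uqcrq at 139 and Uqcr10 at 103 CPM. In complexes IV and V they were Cox6b1 at 171, Cox7a2 at 115, Cox8a at 129, Ndufa4 at 243, Cox7c at 51.9, Cox6c at 143 and Atp5g3 at 218 CPM. The mitochondrial, copy and nuclear shares of counts were 8.32%, 2.37% and 0.912% there.

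Other libraries stood apart in single genes. mt-Nd1 was at 3212 CPM in SmoM2 BCC replicate 3 and at 3426 CPM in PKI BCC replicate 1, where mt-Nd2 was at 1818 CPM. Cox4i2, the low alternative form of subunit 4, was at 0.646 CPM in Gnas-eKO BCC replicate 1.

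For 20 named nuclear genes the BCC effect differed between PKI and SmoM2 in edgeR's interaction test. Differences of log2 fold changes (PKI minus SmoM2) in complex IV were 1.02 for Cox7c, 0.79 for Cox6a1, 0.77 for Cox5a, 0.70 for Ndufa4, 0.68 for Cox6c, 0.46 for Cox6b1 and -1.42 for Cox6b2. In complex I they were 0.79 for Ndufb1-ps, 0.71 for Ndufc2, 0.68 for Ndufc1, 0.47 for Ndufs6, 0.41 for Ndufs1, 0.39 for Ndufa8 and 0.37 for Ndufb5. In the remaining complexes they were 0.83 for Uqcr10, 0.71 for Uqcrq, 0.39 for Uqcrfs1, 0.59 for Sdhd, 0.40 for Sdhb and 0.60 for Atp5g3. All but Cox6b2 were larger in PKI.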

How the results depend on the processing

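Of the 155 named gene results, none that was called changed sign under the alternatives run. Among values called neither before nor after, 116 of 1644 changed sign, in 59 results, of which 21 did so without Gnas-eKO BCC replicate 3 and 20 with library totals in place of TMM. Of 1395 values from fits that keep all libraries, 1309 stayed on the same side of the threshold, 73 lost the call and 13 gained one. Of 1225 leave-one-out values, 1065 stayed, 153 lost the call and 7 gained one. In one fit of all 21 libraries, which share one estimate of the spread, the nuclear calls were 4 in SmoM2, 8 in PKI, 4 in Gnas-eKO, 6 between PKI and SmoM2, and 3 for PKI against Gnas-eKO (4.94%, 9.88%, 4.94%, 7.41% and 3.70%, against 22.7%, 29.3%, 14.9%, 16.9% and 13.1% of all genes), and 0 mitochondrial genes were called in SmoM2. Library totals in place of TMM gave 7 nuclear and 2 mitochondrial calls in SmoM2, 38 nuclear in PKI and 20 between PKI and SmoM2. The SmoM2 medians were then 0.040 (nuclear) and 0.12 (mitochondrial), and of all genes 23.6% were called higher and 8.06% lower. DESeq2's Wald test called 4 nuclear genes between PKI and Gnas-eKO. Leaving out single libraries gave 0 to 2 mitochondrial calls in SmoM2 with medians from -0.13 to 0.17, 10 to 18 nuclear calls in SmoM2, 0 to 2 in Gnas-eKO, 5 to 36 in PKI, 18 to 49 between PKI and SmoM2, and 0 to 26 for PKI against Gnas-eKO. The Gnas-eKO medians then ran from 0.02 to 0.69 (mitochondrial) and from -0.16 to 0.13 (nuclear). The Gnas-eKO minus SmoM2 and PKI minus Gnas-eKO differences moved with the same library. The cause was not tested.

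Same-numbered Con and BCC libraries did not deviate together in every pair (correlations of -0.07, -0.16 and -0.10 in SmoM2, 0.05, 0.21 and 0.11 in Gnas-eKO, 0.29, -0.04 and 0.23 in PKI). Whether they share more than a number cannot be settled from so few pairs. With the replicate number as a block, nuclear calls were 6 in SmoM2, 36 in PKI, 33 between PKI and SmoM2, and 1 for PKI against Gnas-eKO (7.50%, 45.0%, 40.7% and 1.23%, against 20.9%, 36.5%, 22.9% and 5.36% of all genes), and 0 mitochondrial genes were called in SmoM2. Low members such as Cox7a1 and Cox8b were too shallow to test.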

Other observations

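Cox7b, a small subunit of complex IV, had the highest fitted log2 fold change of the nuclear members in PKI (0.61, SE 0.39) and was not called (edgeR adjusted p = 0.276). It was chosen after its values were seen. Its PKI Con libraries had 158, 104 and 107 CPM and its PKI BCC libraries 279, 236, 108 and 119 CPM, so 2 BCC libraries lay far above the other 2, which lay among Con. In Gnas-eKO BCC it had 96.6, 116, 250.01 and 107 CPM, again with 1 library far above the rest, and in SmoM2 BCC 102, 87.9, 108 and 98.3 CPM.

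Ndufv3, an accessory subunit of the NADH-binding part of complex I, was the nuclear member with the lowest log2 fold change in PKI (-0.24, edgeR adjusted p = 0.0785, not called) and fell in SmoM2 (-0.31, edgeR adjusted p = 0.0239). It was likewise chosen after its values were seen. It had 69.9, 64.4 and 61.5 CPM in PKI Con and 54.2, 61.3, 48.4 and 55.4 CPM in PKI BCC, with every BCC library below every Con library. The 2 mitochondrial ribosomal RNAs held 0.0472% ± 0.00430 of counts in PKI Con (SD, n = 3) and 0.0628% ± 0.0128 in PKI BCC (SD, n = 4). In SmoM2 they held 0.0475% ± 0.0134 in Con (SD, n = 3) and 0.0647% ± 0.00406 in BCC (SD, n = 4), and in Gnas-eKO 0.0494% ± 0.00792 in Con (SD, n = 3) and 0.103% ± 0.0706 in BCC (SD, n = 4). Without replicate 3, at 0.209%, the Gnas-eKO BCC share was 0.0680% ± 0.00831 (SD, n = 3). Every BCC library lay above every Con library of its model, in Gnas-eKO by as little as 0.0587% against 0.0584%.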
